A study of Zea mays with 9 samples.

Results

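Supplying nitrogen-starved maize roots with either nitrate or ammonium left a small set of 28 genes at less than 1/2 of their transcript level in roots kept without nitrogen. The genes were chosen by their levels in root apexes of the inbred line B73, among 15927 gene models with at least 5 RPKM in one or more conditions and above 0 in all 3. RPKM is the number of reads of a gene divided by the length of its transcript and by the size of the library, a level that can be compared between genes. Members had a log2 ratio below -1 to the nitrogen-free control after nitrate and also after ammonium. They made up 0.176% of the eligible genes, out of 43484 Zm00001d gene models in the table.

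The libraries came from the apexes of primary roots of seedlings that had germinated for 3 days and were then moved to nutrient solution. For 24 h the roots received 1 mM nitrate as KNO3 (+NO3), 1 mM ammonium as NH4Cl (+NH4) or no nitrogen (-N). The added salts thus also brought potassium or chloride, and whether the solutions were balanced for these was not examined. All seedlings, including those of -N, had first been kept without nitrogen. Each condition had 3 biological replicates of pooled seedlings, 9 libraries in all, and the deposited table gives 1 estimate per gene and condition. Every value below is therefore the authors' pooled value, with no replicate spread and no test. The table holds no read counts, so the number of reads behind a single value was not used here. A whole root apex mixes many cell types, so fewer cells of a type and less RNA per cell cannot be told apart.

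Plant roots take up nitrate and ammonium through separate transporters. Nitrate is reduced to nitrite and then to ammonium, and ammonium from either source is built into glutamine by glutamine synthetase. Nitrate also acts as a signal in its own right, so genes that respond alike to both ions are of interest as candidates for a response to nitrogen as such. Of the 28 members, only 2 have a description in the sources used here. They are peroxidases, enzymes that use hydrogen peroxide to oxidise other compounds and act in the cell wall and in the control of reactive oxygen species. The other 26 are given by their identifiers.

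As a check of the tissue, the root cap regulator SOMBRERO (Zm00001d016119) was listed at 4.77 RPKM in +NO3, 2.84 in +NH4 and 1.17 in -N. The proliferating cell nuclear antigen gene Zm00001d018415, a marker of DNA replication, was listed at 72.96 RPKM in +NO3, 39.1 in +NH4 and 78.3 in -N. The Faciata 1-like gene Zm00001d012166 was listed at 6.89 RPKM in +NO3, 3.52 in +NH4 and 8.13 in -N. The study lists it with the antigen gene under cell proliferation, among genes lowered by ammonium. All these genes were detected in every condition, so transcripts of the cap and of dividing cells were present. The antigen gene and the Faciata 1-like gene were lowest in +NH4. The part of cell composition in the levels of the 28 genes was not tested.

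Falls of this size were uncommon in either comparison. Among the eligible genes 235 (1.48%) had a log2 ratio below -1 after nitrate and 217 (1.36%) after ammonium. In the other direction, 389 genes (2.44%) lay above 1 after nitrate and 1207 (7.58%) after ammonium. The median log2 ratio of all eligible genes was 0.02 after nitrate and 0.01 after ammonium. The members had a median nitrate ratio of -1.53 and a median ammonium ratio of -1.14, values that the choice of the genes sets. Both ratios are taken over the same -N estimate, so an error in that estimate would move both in the same direction.

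**Figure D1:**
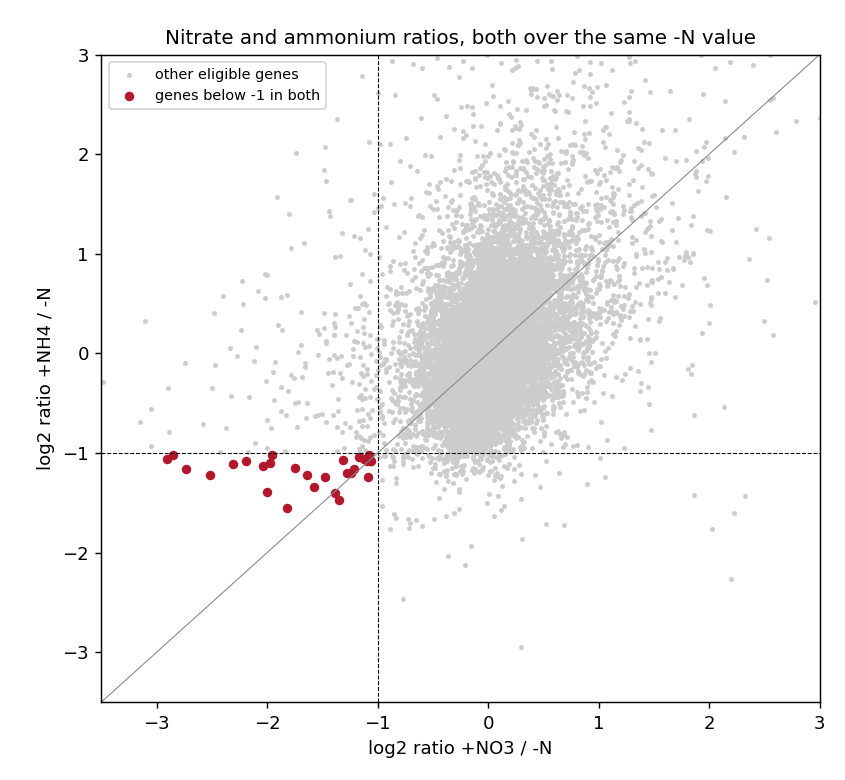
Log2 ratio of +NH4 to -N (y axis) against log2 ratio of +NO3 to -N (x axis) for the eligible genes, with the 28 members in red, dashed lines at -1 and a diagonal where both ratios are equal; 116 genes lie outside the axes, which run from -3.5 to 3. The members form a band that is narrow along the ammonium axis, between -1.02 and -1.56, and wide along the nitrate axis, between -1.06 and -2.91.

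The members reached different depths under the 2 ions. In +NH4 23 of them were higher than in +NO3 and 5 were lower, beside 49.3% of all eligible genes higher in +NH4. This ratio, like the others, is built from the values that chose the genes, so such shares are given as a description only. After nitrate the log2 ratios ran from -1.06 to -2.91, a range of 1.85, and after ammonium from -1.02 to -1.56, a range of 0.54. Below -2 were 8 members after nitrate and none after ammonium, while 51 of all eligible genes (0.32%) lay that low after nitrate and 6 (0.0377%) after ammonium. Members were picked for ratios below -1, and nothing is read from these shares. Of the 235 genes below -1 after nitrate, whether members or not, 51 lay below -2. Of the 217 genes below -1 after ammonium, 6 lay below -2, so deep falls after ammonium were few among all lowered genes. The ammonium ratio lay above -1.3 for 23 of the 28 members. For most members it was therefore the ammonium value that lay close to the threshold.

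In the roots without nitrogen the members spanned a wide range of expression. Their -N levels ran from 5.13 to 1151 RPKM, with a median of 14.6 RPKM, while the median of all eligible genes was 17.7 RPKM. Below 10 RPKM in -N were 11 members, a further 13 lay between 10 and 50 RPKM, and 4 lay above 50 RPKM. Members were 0.323% of the 3408 eligible genes with 5 to 10 RPKM in -N. Of the 1510 genes with 100 RPKM or more, only 1 was a member (0.0662%). In between, from 10 to 100 RPKM, the share of members lay between 0.151% and 0.188%. A ratio below -1 after nitrate was also more common at low levels, with 2.46% of the genes with 5 to 10 RPKM and 0.993% of those with 100 RPKM or more. The error of low RPKM values is not known from the table, and its part in these shares was not tested.

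**Figure D2:**
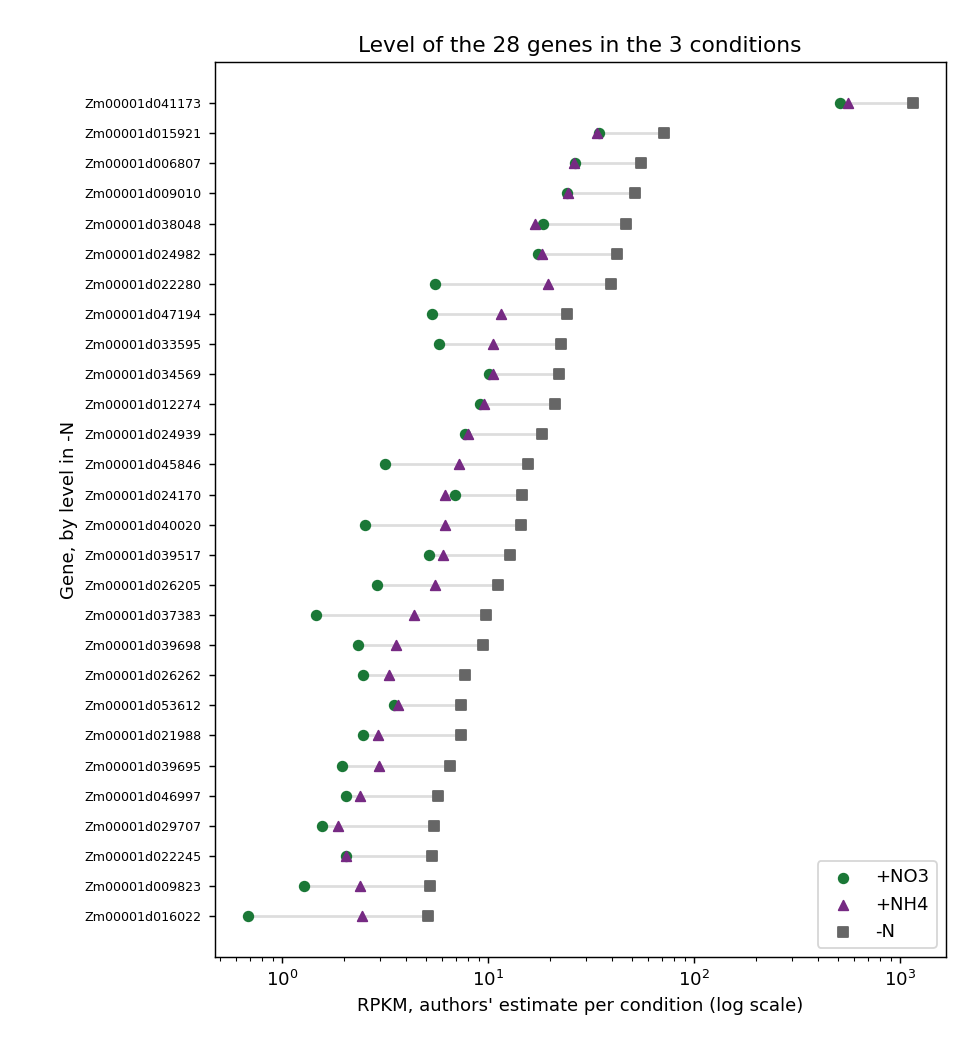
RPKM of each of the 28 genes (x axis, log scale) in +NO3 (circles), +NH4 (triangles) and -N (squares), with genes ordered down the y axis by their level in -N. As the choice of the genes requires, the -N value is the highest of the 3 for every gene. The circle and triangle nearly coincide for many of the more abundant genes.

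By far the most abundant member was Zm00001d041173, which the files do not name. It was listed at 512.2 RPKM in +NO3 and 558.2 RPKM in +NH4, against 1151 RPKM in -N. Its log2 ratios were -1.17 after nitrate and -1.04 after ammonium, so the levels under the 2 ions lay much closer to each other than to the control. This gene alone held 71.2% of the summed RPKM of the members in +NO3, 68.8% in +NH4 and 67.2% in -N. The other 27 members summed to 207.2 RPKM in +NO3 and 253.1 RPKM in +NH4, against 560.8 RPKM in -N.

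For 9 members the levels under nitrate and ammonium were nearly the same, with a log2 ratio of +NH4 to +NO3 within 0.1 of 0. Of all eligible genes, 17.3% lay within that band. These 9 genes had 38.0% to 49.4% of their -N level under either ion, and they include 3 of the 4 members above 50 RPKM. Zm00001d015921 was listed at 34.5 RPKM in +NO3 and 34.0 in +NH4, against 71.9 RPKM in -N. Zm00001d006807 had 26.4 RPKM in +NO3 and 26.3 in +NH4, against 55.4 in -N, and Zm00001d009010 had 24.2 and 24.5 RPKM under the same ions, against 51.7 in -N. In each of these 3 genes the 2 nitrogen supplies left 46.8% to 48.0% of the -N level.

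The remaining 6 of these genes covered lower levels. Zm00001d024982 had 17.4 RPKM in +NO3 and 18.4 in +NH4, against 42.3 in -N, and Zm00001d034569 had 10.2 and 10.6 RPKM under the ions, against 22.1 in -N. Zm00001d012274 was listed at 9.18 RPKM in +NO3 and 9.52 in +NH4, against 21.2 in -N, close to Zm00001d024939 with 7.73 and 7.99 RPKM against 18.3 in -N. The weakest expression was that of Zm00001d053612 (3.50 RPKM in +NO3 and 3.64 in +NH4, against 7.38 in -N) and of Zm00001d022245 (2.05 RPKM in +NO3 and 2.04 in +NH4, against 5.36 in -N). The last gene had the largest falls of the 9, with log2 ratios of -1.39 after nitrate and -1.40 after ammonium.

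A second set of 9 members was much lower after nitrate than after ammonium. Their log2 ratios of +NH4 to +NO3 ran from 0.87 to 1.85, whereas the highest value among the other 19 members was 0.61. Their nitrate ratios lay between -1.96 and -2.91 with a median of -2.31, and their ammonium ratios between -1.02 and -1.22. The other 19 members had a median nitrate ratio of -1.28 and a median ammonium ratio of -1.20. The -N levels of the groups were alike at the median, 14.4 RPKM in the 9 genes and 14.7 RPKM in the other 19. The grouping was made after the values were seen.

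The deepest fall after nitrate was that of Zm00001d016022, with 0.682 RPKM in +NO3 and 2.45 in +NH4, against 5.13 RPKM in -N. Nitrate thus left 13.3% of the -N level and ammonium 47.9%. Next came the peroxidase gene Zm00001d022280, with 5.50 RPKM in +NO3 and 19.6 in +NH4, against 39.7 RPKM in -N. It was the most abundant of the 9 genes in -N, and nitrate left 13.9% of that level and ammonium 49.2%. Zm00001d037383 had 1.47 RPKM in +NO3 and 4.38 in +NH4, against 9.77 in -N, and Zm00001d040020 had 2.52 and 6.18 RPKM against 14.4 in -N. Both were at less than 20% of their -N level after nitrate (15.0% and 17.5%), but at 44.9% and 42.9% after ammonium.

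The peroxidase gene Zm00001d045846 was listed at 3.17 RPKM in +NO3 and 7.25 in +NH4, against 15.7 RPKM in -N, which left 20.2% and 46.2% of the control level. A similar profile was found for Zm00001d047194, with 5.34 RPKM in +NO3 and 11.5 in +NH4, against 24.3 in -N. The last 3 genes of the set kept about 25% of their -N level after nitrate. Zm00001d009823 had 1.28 RPKM in +NO3 and 2.40 in +NH4, against 5.24 in -N (24.4% and 45.8%). Zm00001d033595 had 5.79 and 10.6 RPKM against 22.7 in -N (25.5% and 46.6%), and Zm00001d026205 had 2.89 and 5.54 RPKM against 11.2 in -N (25.7% and 49.4%).

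**Figure D3:**
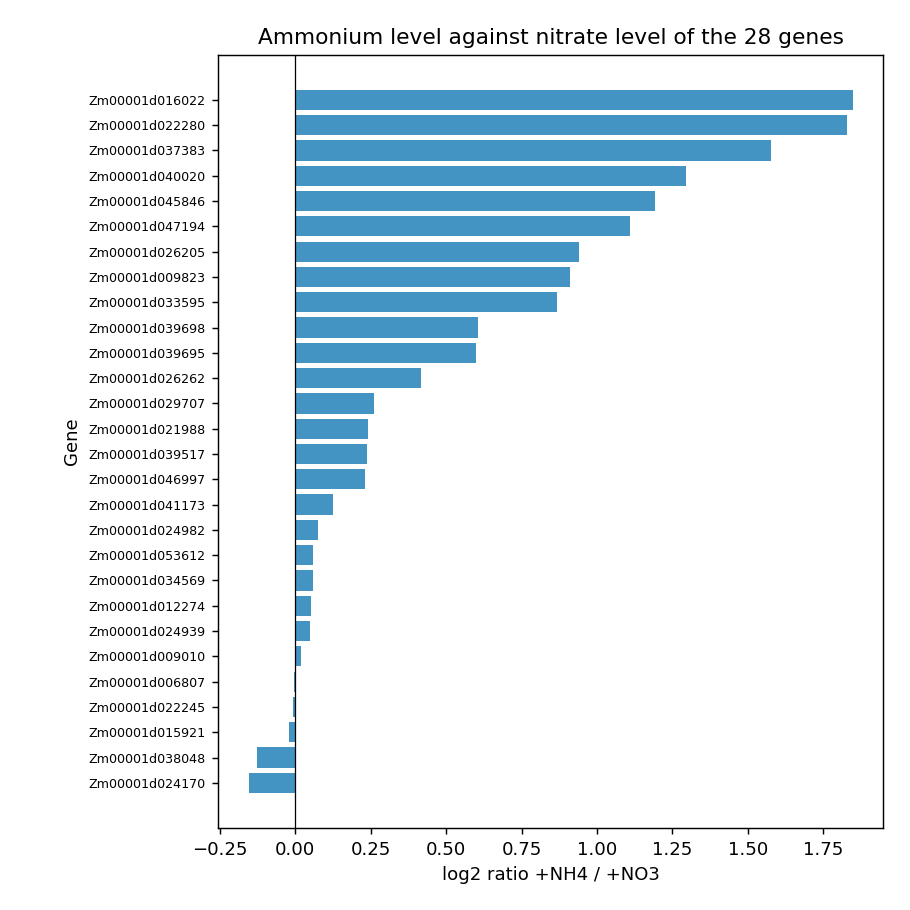
Log2 ratio of the RPKM in +NH4 to the RPKM in +NO3 (x axis) for each of the 28 genes (y axis), a comparison that does not contain the -N value. The bars of 23 genes point to higher levels in +NH4. The upper 9 genes begin at 0.87, above the next gene at 0.61. This gap does not stand out, since one inside the 9 genes, from 1.29 to 1.58, is wider.

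Between these sets lay 8 members with moderately lower levels after nitrate than after ammonium, Zm00001d041173 among them. In Zm00001d039698 nitrate left 2.35 RPKM and ammonium 3.58, against 9.41 RPKM in -N. This gene was 1 of the 8 members below -2 after nitrate, and its ammonium ratio of -1.40 was also among the lower ones. Its neighbour in the numbering, Zm00001d039695, had 1.95 RPKM in +NO3 and 2.95 in +NH4, against 6.56 in -N. The largest fall after ammonium was that of Zm00001d029707, with 1.56 RPKM in +NO3 and 1.87 in +NH4, against 5.49 in -N. Its log2 ratios of -1.82 and -1.56 made it the single member below -1.5 under both ions.

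The remaining genes of this range were of low to moderate level. Zm00001d026262 was listed at 2.48 RPKM in +NO3 and 3.32 in +NH4, against 7.74 in -N, and Zm00001d021988 at 2.47 and 2.92 RPKM against 7.37 in -N. In Zm00001d046997 the values were 2.05 RPKM in +NO3 and 2.40 in +NH4, against 5.69 in -N. In Zm00001d039517 they were 5.16 and 6.08 RPKM, against 12.8 in -N.

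Only 2 members had a log2 ratio of +NH4 to +NO3 below -0.1, and both differences were small. Zm00001d038048, one of the more abundant members, had 18.5 RPKM in +NO3 and 17.0 in +NH4, against 47.1 RPKM in -N. Its ammonium ratio of -1.47 was second to that of Zm00001d029707. Zm00001d024170 had 6.93 RPKM in +NO3 and 6.22 in +NH4, against 14.7 RPKM in -N.

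Peroxidases are the one described family among the members, and the study lists peroxidase genes under the metabolism of reactive oxygen species among genes lower under both ions. Of that list 11 genes, including the 2 members, were used here. The study picked them on these very libraries, and so the direction of the list is no independent evidence. All 11 were below their -N level after nitrate and after ammonium. With the ratio below -1 there were 10 after nitrate and 3 after ammonium, beside 1.48% and 1.36% of all eligible genes. The medians were -1.65 and -0.74. Only 8 of the 11 genes were eligible, and these counts and medians include the others. Those were Zm00001d028348, Zm00001d026357 and Zm00001d014603, with 0.282, 0.148 and 0.266 RPKM in +NO3 and 3.67, 1.59 and 1.35 in -N. Each of the 11 was lower in +NO3 than in +NH4, beside 49.3% of all eligible genes. The median log2 ratio of +NH4 to +NO3 was 1.00. The genes that were not eligible had the highest of these ratios, at low levels, and so raised this median. Both members share the direction of this difference with the other eligible peroxidases of the list. The ratios of those others were smaller, from 0.23 to 1.00.

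Among the peroxidases that are not members, the most abundant was Zm00001d040364, with 424.8 RPKM in +NO3 and 498.5 in +NH4, against 889.5 RPKM in -N. Its ammonium ratio of -0.84 kept it outside, and that of Zm00001d038598, at -0.95, lay just above the threshold. In Zm00001d038598 the levels were 55.4 RPKM in +NO3 and 70.9 in +NH4, against 136.7 in -N. Zm00001d028348 was below -1 under both ions, with 0.282 RPKM in +NO3 and 1.29 in +NH4, but its -N level of 3.67 RPKM was under the minimum of 5 RPKM. The study lists 4 other peroxidase genes among genes raised by ammonium or by nitrate, so their direction was set by that choice. Of these 4, taken up here after their values were seen, 3 were above their -N level after nitrate and 3 after ammonium. Zm00001d014608 had 40.4 RPKM in +NO3 and 117.4 in +NH4, against 20.5 in -N.

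**Figure D4:**
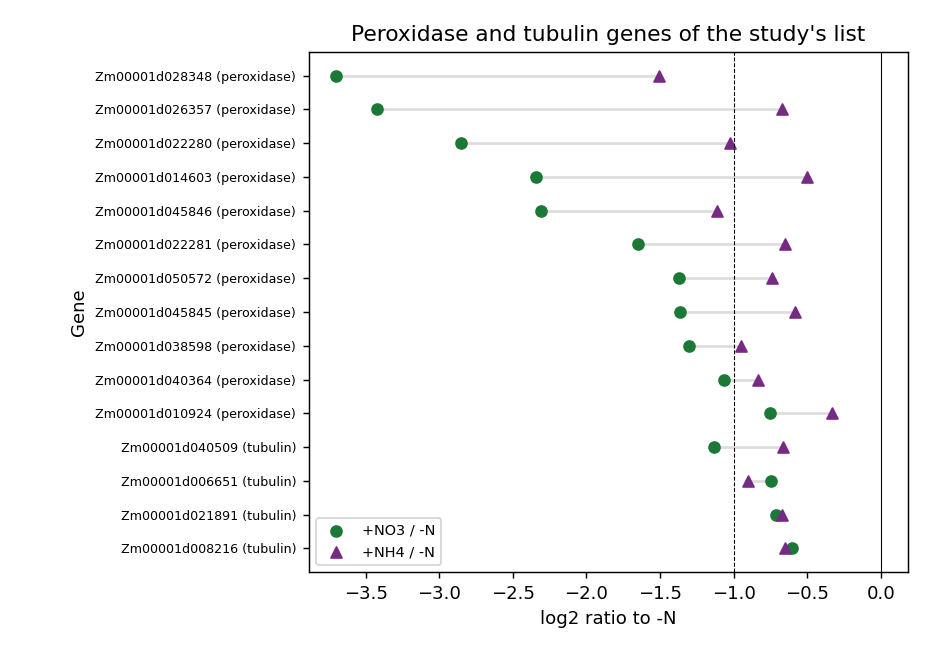
Log2 ratio to -N (x axis) after nitrate (circles) and ammonium (triangles) for the 11 peroxidase and 4 tubulin genes that the study lists as lower under both ions (y axis), with a dashed line at the threshold of -1. The circles of the peroxidases lie left of the triangles in every case, while the 4 tubulin genes lie between -0.61 and -1.14 after nitrate and between -0.65 and -0.90 after ammonium.

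Tubulins, the subunits of microtubules, are listed by the study beside the peroxidases, again from the same libraries. None of the 4 tubulin genes was a member, because their falls were smaller. The median log2 ratios were -0.73 after nitrate and -0.67 after ammonium. The beta tubulin gene Zm00001d040509 came closest after nitrate, with 166.3 RPKM in +NO3 and 230.5 in +NH4, against 365.4 in -N (-1.14 and -0.66). The most abundant of them was the alpha tubulin gene Zm00001d021891, with 392.2 RPKM in +NO3 and 403.7 in +NH4, against 642.1 in -N. Its ratios of -0.71 and -0.67 differed little, as in the 9 members with even falls.

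None of the 15 genes that the study lists for nitrogen transport and assimilation was a member, and only 10 of them were eligible. The study picked them as changed in these same libraries, so the counts describe the list only. Over all 15 genes, eligible or not, 4 lay below -1 after nitrate and none after ammonium. Above 1 lay 8 after nitrate and 8 after ammonium. Of all eligible genes, 1.48% and 1.36% lay below -1 after nitrate and ammonium, and 2.44% and 7.58% above 1. The list counts include genes that were not eligible, so they are not over a like set. The 4 genes below -1 after nitrate were transporters for ammonium or urea. Of these, Zm00001d017249 and Zm00001d037242 were not eligible, with 0.645 and 0.144 RPKM in +NO3 and 2.81 and 0.666 in -N. The ammonium transporter gene Zm00001d034782 was listed at 2.95 RPKM in +NO3 and 8.49 in +NH4, against 8.57 in -N, and so was near its control level under ammonium. At the opposite end stood ferredoxin-nitrite reductase (Zm00001d018161), the enzyme that reduces nitrite to ammonium, with 16.3 RPKM in +NO3 and 16.7 in +NH4, against 0.820 in -N.

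Several members had neighbours in the identifier numbering that were also lower after nitrate. Numbers within 5 of a member were searched, and 84 eligible genes that are not members were found. Of these 84 genes, 7 (8.33%) had a log2 ratio below -1 after nitrate and 2 (2.38%) after ammonium, beside 1.48% and 1.36% of all eligible genes. The median ratios of the 84 genes were -0.03 and -0.15, and 44 of them lay below 0 after nitrate and 52 after ammonium. Some neighbours rose under both ions. The log2 ratios were 6.65 and 3.38 for Zm00001d045843, near Zm00001d045846, and 1.32 and 1.93 for Zm00001d022277, near Zm00001d022280. For Zm00001d029708, near Zm00001d029707, they were 1.88 and 1.84. In -N these genes were listed at only 0.124, 1.37 and 1.38 RPKM, in the same order, so the ratios rest on low values. The position of the genes in the genome was not used here, and no test was made of these shares. Similar genes that lie close together can share reads, which the authors' processing divides between them.

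All 7 neighbours below -1 after nitrate belonged to 3 members, each of the set with deep falls after nitrate. Next to the peroxidase gene Zm00001d022280 were 4 of them. Zm00001d022279 had 4.58 RPKM in +NO3 and 13.7 in +NH4, against 12.1 in -N. Zm00001d022281, a peroxidase gene as well, had 3.04 and 6.07 RPKM against 9.54 in -N, and Zm00001d022284 had 3.59 and 8.37 RPKM against 9.49 in -N. Zm00001d022282 was the most abundant of the 4, with 22.3 RPKM in +NO3 and 55.7 in +NH4, against 57.5 in -N. These 4 neighbours were thus low after nitrate, but their ammonium ratios lay between -0.65 and 0.18.

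The second peroxidase member, Zm00001d045846, stood beside the peroxidase gene Zm00001d045845, with 6.19 RPKM in +NO3 and 10.6 in +NH4, against 15.9 in -N. Zm00001d037383 was followed by Zm00001d037384 (25.9 RPKM in +NO3 and 40.2 in +NH4, against 54.3 in -N) and Zm00001d037385 (2.27 and 7.62 RPKM, against 6.38 in -N). The single pair of members within 5 numbers of each other was Zm00001d039695 and Zm00001d039698. Near Zm00001d016022, the gene Zm00001d016024 was below -1 under both ions (-2.45 and -1.01), but with only 1.96 RPKM in -N. The 2 neighbours below -1 after ammonium were Zm00001d041168 (-1.13), near Zm00001d041173, and Zm00001d046995 (-1.11), near Zm00001d046997.

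The threshold cuts through a continuous range of values. Just inside it were Zm00001d026205 and Zm00001d053612, each with an ammonium ratio of -1.02, and Zm00001d022280, also at -1.02. Just outside were Zm00001d040504 (-1.16 after nitrate and -0.99 after ammonium), Zm00001d049247 (-2.43 and -0.99) and Zm00001d030548 (-0.99 and -1.04). For 12 members the ratio nearer to 0 lay between -1.1 and -1, and 19 further eligible genes had it between -1 and -0.9. Adding a pseudocount of 1 RPKM to every value, which weighs down genes of low level, left 18 of the 28 members. A minimum of 10 RPKM left 17.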

How the data were processed

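Per the labels and the methods of the study, reads were trimmed by the authors (Trimmomatic 0.33), aligned with TopHat2 2.0.13 to B73 RefGen_v4 and its Gramene annotation, removed reads of low mapping quality, and ran Cuffdiff of Cufflinks 2.2.1 with correction for multiply mapped reads and normalization by quartile. The deposited values are RPKM, 1 per gene and condition over 3 replicates. The table holds no counts and no replicate values, so the error of a value is unknown and no test was made. Tables of the authors' own tests were not used. The correction divides reads between similar genes, which makes family members less certain.

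Log2 ratios were computed without a pseudocount with Python 3.11.15, numpy 2.4.6 and pandas 2.3.3. The rule was run on simulated data in which the lowered genes lay well past the threshold, which checked the code only and not the members. A further gene that met the rule is not reported here. Members and lists were chosen with earlier results of these data known. All 28 members are named. Also named are the 3 genes just outside the threshold, genes of the study's lists and marker genes. Neighbours in number, genes listed at 0 and RNAs of other types are named as well. Descriptions were available for 2 of the 28 members, so planned searches by description words, and a check for leaf markers, were void. Alternatives were 2 pseudocounts, 3 minimum levels, 3 scalings and 2 thresholds.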

Additional observations from a re-analysis of the deposited data

How the results depend on the processing

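The number of members moved most with the limits of the rule. It was 316 with no minimum RPKM, 84 with a minimum of 1 RPKM and 17 with a minimum of 10 RPKM. It was 169 with a threshold of -0.58 and 1 with a threshold of -1.5. With a pseudocount of 1 it was 18, and the median log2 ratios of the 28 genes were then -1.29 after nitrate and -1.04 after ammonium. The same pseudocount gave a median of -1.29 after nitrate for the peroxidase list and 0.67 after ammonium for the nitrogen list. Scaling to the same upper quartile gave 0.14 for the median ratio of +NH4 to +NO3 of the members. The other 44 of 55 alternatives changed a median by less than 0.1 on the log2 scale, or a count by less than 1.5 times, and no median changed sign. Scaling to the same total gave 41 members and to the same upper quartile 39, with all 28 genes among them in each case. No paired analysis was possible because the columns hold 1 pooled value per condition, and no replicate could be left out for the same reason.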

Other observations

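Some genes with a large fall were outside the rule because they were listed at 0. Zm00001d028956 was listed at 0 in +NO3 and in +NH4, against 27.5 RPKM in -N, and Zm00001d037402 at 0 under both ions, against 13.6 RPKM in -N. A value of 0 can be a failed estimate, and no ratio is given. A further 3 gene models with at least 5 RPKM in -N were listed at 0 under a single ion, namely Zm00001d010022 in +NO3 and Zm00001d032382 and Zm00001d037715 in +NH4.

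Among 340 identifiers of other types with at least 5 RPKM in one or more conditions, 32 were at less than 1/2 of their -N level under both ions, of which 28 were ENSRNA identifiers of non-coding RNAs and 4 were microRNA genes. Of these 32, 18 were listed at 0 under both ions and 8 were above 0 in all conditions. Values of 0 were allowed here, unlike in the choice of the members, so the counts cannot be compared. How many of these identifiers rose was not counted. The most abundant of the 8 was ENSRNA049461747, with 117.7 RPKM in +NO3 and 80.1 in +NH4, against 311.7 RPKM in -N.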
